A study of Mus musculus with 12 samples.

Results

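CXC chemokines are small secreted proteins named for a pair of cysteines with 1 residue between them. They act on G protein-coupled receptors of leukocytes, and many are held on vessel walls by heparan sulfate. The 6 ligands described here are Pf4, Cxcl1, Cxcl2, Cxcl10, Cxcl13 and Cxcl16, taken by gene symbol from the 17358 genes of the deposited table. All 6 were present, and all 6 passed the low-count filter, as did 9550 genes in all. They were chosen by their CXC family membership after their levels and aged-young differences in these libraries had been seen, so their values and p-values are a description and not independent evidence.

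The libraries came from perivascular macrophages of mouse brain, the macrophages that lie along cerebral vessels. The aged group (18 months) held 5 libraries and the young adult group (3 months) 7, all from mice that the series text gives as C57BL, and no treatment or transgene is named. Full-length cDNA was amplified by SMART-seq2, a method for small amounts of RNA, and made into libraries by a kit that does not mark strand. The series text calls the libraries biological replicates, but the number of animals and cells behind each, and how the cells were isolated, are not given in the labels. In pooled RNA, fewer cells of a type cannot be told apart from less RNA per cell.

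Library totals were 23214836 to 30505441 estimated counts in aged against 25864086 to 30628787 in young ones (permutation test, exact and two-sided, p = 0.0922). All 10 perivascular macrophage markers, among them Mrc1 and Cd163, were tested, and their summed level was 8442 to 12408 CPM (counts scaled to library size with TMM factors) in aged and 8682 to 13073 CPM in young libraries. The 10 microglia markers listed summed to 4078 to 6128 CPM in aged and 4080 to 7503 CPM in young libraries. All 10 were tested and none passed the adjusted threshold, with 2 higher and 8 lower in aged libraries. By edgeR's quasi-likelihood test 2 of the 10 had an unadjusted p under 0.05. The part of microglia markers in the ligand levels was not tested. Aged libraries 1, 3 and 4 stood apart on the first principal component (-104.8 to -76.1, against 10.8 to 47.6 in the other 9), so the age difference of each of the 6 ligands is also given without them. Markers of the choroid plexus, the epithelium that makes cerebrospinal fluid, had sums that did not overlap between the ages: the 6 markers listed (Enpp2, Kcnj13, Folr1, Clic6, Prlr and Kl) summed to 80.1 to 263 CPM in aged and 0.165 to 30.8 CPM in young libraries. None of the 6 was at 0 in every library, though Folr1 was at 0 in all young ones. Enpp2 weighed heavily on these sums, at 36.1 to 204 CPM in aged and 0 to 30.6 CPM in young libraries. Of the 6, 3 were tested and none passed the adjusted threshold. Enpp2 and Kcnj13, both higher in aged libraries, had an unadjusted p under 0.05 in edgeR's quasi-likelihood test, as had 5.97% of all tested genes. Kcnj13 was over 3 counts in 4 aged libraries and 1 young library.

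In the comparison of aged with young libraries, none of the 6 ligands passed edgeR's quasi-likelihood test at an adjusted p under 0.05, a threshold that 0.0105% of all tested genes passed. At an unadjusted p under 0.05 there was 1 ligand, Cxcl13, higher in aged libraries, against 5.97% of all tested genes in either direction and 3.85% higher in aged. The log2 fold change, aged over young, was positive for 3 ligands and negative for 3, with a median of -0.15 over the ligands and -0.01 over all tested genes. No ligand had groups that did not overlap, which 0.597% of tested genes had.

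**Figure D1:**
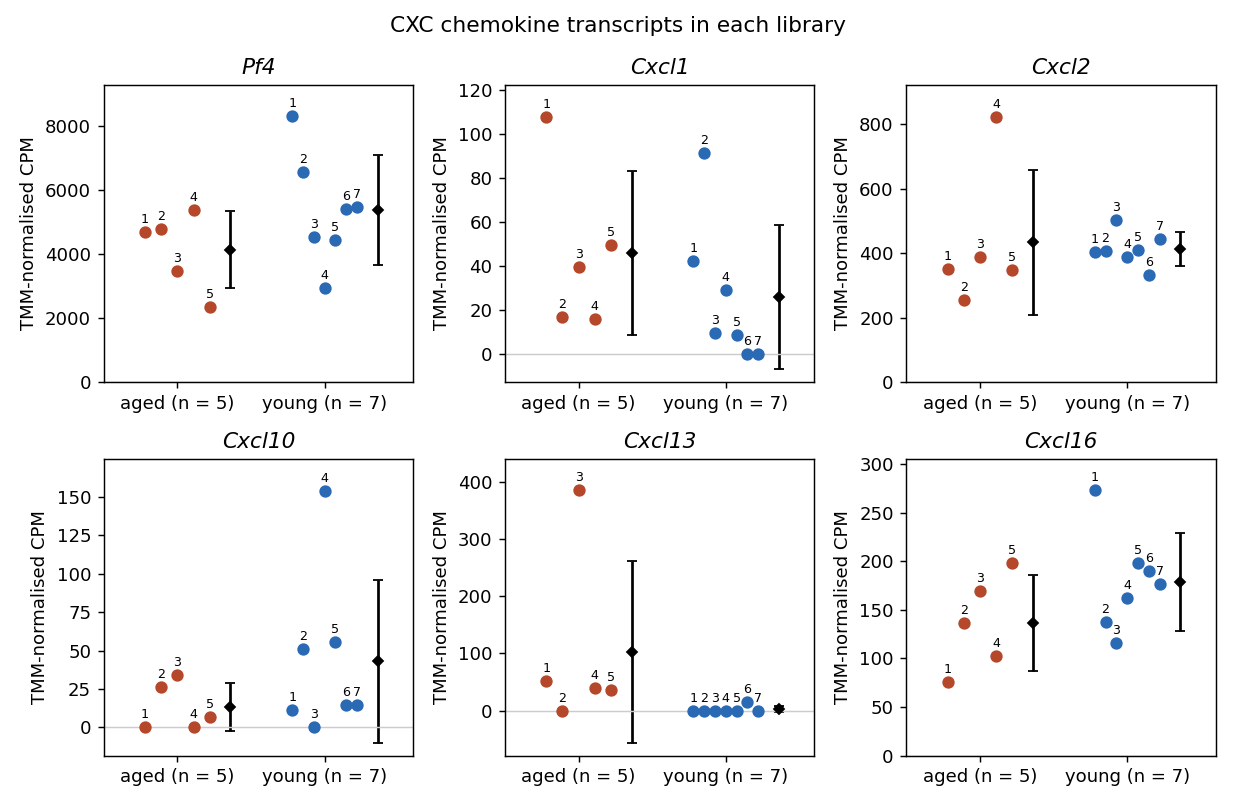
TMM-normalised CPM (vertical axis, linear, a separate scale for each gene) of the 6 ligands in aged and young libraries; points are libraries labelled with their replicate number and diamonds with bars are mean ± SD. Cxcl13 was above 30 CPM in 4 aged libraries and at 0 in 6 young ones, whereas the groups of the other ligands overlapped widely.

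Pf4, Cxcl1 and Cxcl2 lie together on chromosome 5 of GRCm38, at chr5:90772435-90773383, chr5:90891245-90893121 and chr5:90903899-90905938, and Cxcl10 and Cxcl13 at chr5:92346638-92348889 and chr5:95956939-95961068. Cxcl16 lies at chr11:70454389-70459984. The 250 bases before the start of 4 of them are shown because Cxcl1 and Cxcl2 share a motif there while their levels had a Pearson's r of -0.06 over the 12 libraries, and because Cxcl10 and Cxcl13 had the largest coefficients of variation in aged libraries (117.9% and 155%). Sequences are from RefSeq (GRCm38.p6), 5' to 3' on the strand of the gene; capitals mark matches to the NF-kB consensus, the interferon-response core (GAAA, any 2 bases, GAAA; both on either strand, overlapping matches merged) or the TATA sequence TATAAA (gene strand only).
Cxcl1 (chr5:90890995-90891244, plus strand): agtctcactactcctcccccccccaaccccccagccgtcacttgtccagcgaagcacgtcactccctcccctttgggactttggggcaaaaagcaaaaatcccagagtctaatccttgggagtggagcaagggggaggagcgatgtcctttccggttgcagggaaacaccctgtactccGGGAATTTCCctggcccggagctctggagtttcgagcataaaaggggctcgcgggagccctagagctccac
Cxcl2 (chr5:90903649-90903898, plus strand): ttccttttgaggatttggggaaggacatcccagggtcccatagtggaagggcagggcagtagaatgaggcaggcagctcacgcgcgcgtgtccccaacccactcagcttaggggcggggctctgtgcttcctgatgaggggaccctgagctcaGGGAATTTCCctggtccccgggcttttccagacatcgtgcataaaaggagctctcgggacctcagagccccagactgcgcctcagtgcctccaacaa
Cxcl10 (chr5:92348890-92349139, minus strand): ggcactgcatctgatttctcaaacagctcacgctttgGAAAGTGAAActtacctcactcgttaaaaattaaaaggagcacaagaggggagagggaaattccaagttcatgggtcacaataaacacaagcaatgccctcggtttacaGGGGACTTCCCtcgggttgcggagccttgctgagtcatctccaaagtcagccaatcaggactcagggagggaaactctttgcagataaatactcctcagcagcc
Cxcl13 (chr5:95956689-95956938, plus strand): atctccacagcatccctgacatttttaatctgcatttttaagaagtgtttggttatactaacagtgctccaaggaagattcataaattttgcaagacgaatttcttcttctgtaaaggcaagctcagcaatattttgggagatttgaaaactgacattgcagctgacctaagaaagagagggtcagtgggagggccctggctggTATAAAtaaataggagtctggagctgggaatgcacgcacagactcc
Cxcl1 and Cxcl2 both hold GGGAATTTCC, starting at base -71 and base -97 from the gene start. These letters, on either strand, were found in 0.0852% of 32851 promoter windows of this length. They were taken from the consensus match in the Cxcl1 window, so the match of Cxcl1 to them was fixed in advance. The NF-kB consensus was found in 5.0% of windows, the interferon-response core in 2.98% and TATAAA in 7.59%. Cxcl10 has overlapping consensus matches and, at base -213, the interferon-response core. The Cxcl13 window holds TATAAA at base -46 and neither of the others, and that of Pf4 none of the 3. A match is a description of letters and not a bound site.

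Cxcl13, the ligand that draws B cells and follicular T cells through the receptor Cxcr5, had the widest age difference of the 6. Its estimated counts were 1300, 0, 7709, 811 and 1090 in aged libraries 1 to 5, against 0 in young libraries 1 to 5 and 7 and 420 in young library 6. It was therefore present in 4 of 5 aged and 1 of 7 young libraries, and the groups overlapped through aged library 2 and young library 6. A count of 0 allowed a level of up to 0.0979 to 0.116 CPM in those libraries, on raw library totals without TMM factors. Normalised levels were 102.7 ± 159 CPM in aged (SD, n = 5) and 2.05 ± 5.43 CPM in young libraries (SD, n = 7). The log2 fold change was 5.64 ± 2.10 (SE), with a 95% interval from 1.21 to 10.08 and an adjusted p of 0.56 by edgeR's quasi-likelihood test. Under edgeR's bias-adjusted estimation (legacy=FALSE) the adjusted p of Cxcl13 was 0.00211, a fit that called 0.398% of all genes, with 0.377% higher and 0.0209% lower in aged libraries. DESeq2, which called 1.27% of all genes and 0.67% as higher in aged libraries, did not call it (adjusted p = 0.615).

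Single libraries weighed heavily on Cxcl13. Aged library 3 held 386 CPM and the next aged library 52.3 CPM, and without aged library 3 the log2 fold change was 3.91. Leaving out aged libraries 1, 3 and 4 gave 3.10, from aged libraries with 0 and 36.5 CPM. Without young library 6 the gene had too few libraries with counts to be tested. The gene passed the filter almost wholly through aged libraries, so a difference among the libraries that let it pass is built into its being tested. The choroid plexus markers, whose sum was larger in every aged library than in any young one, summed to 88.9, 224, 209, 263 and 80.1 CPM in aged libraries 1 to 5, where Cxcl13 was at 52.3, 0, 386, 38.8 and 36.5 CPM. In young library 6, which alone of the young held Cxcl13, the sum was 30.8 CPM, the highest of the young group. Enpp2 weighed heavily on these sums, and its own highest young level was 30.6 CPM. The part of the choroid plexus markers in the age difference was not tested. Cxcr5 had at most 1 count in any library.

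Cxcl10, which is induced by interferons and attracts activated T cells through Cxcr3, also came and went between libraries. It had 1, 770, 675, 1 and 193 estimated counts in aged libraries 1 to 5, and 312, 1422, 0, 4921, 1744, 418 and 445 in young libraries 1 to 7. Both age groups thus held libraries with next to no Cxcl10 beside libraries with 193 counts or more. Its level was 13.3 ± 15.6 CPM in aged and 42.9 ± 53.1 CPM in young libraries (SD, n = 5 and n = 7). The log2 fold change was -1.69 ± 1.49 (SE; 95% interval -4.85 to 1.46; edgeR adjusted p = 0.999), and -0.89 without young library 4, the highest at 154 CPM. Without aged libraries 1, 3 and 4 it was -1.39.

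Cxcl9, the neighbouring interferon-induced ligand of the same receptor, had its highest level in another library than Cxcl10. It had 97.3 CPM in aged library 1, where Cxcl10 had 1 count, 75.8 CPM in young library 6 and 52.4 CPM in young library 4, the library with the most Cxcl10, and it was at 0 in aged libraries 3 and 4 and in young libraries 1, 2, 3 and 7. Its log2 fold change of 0.45 ± 2.08 (SE) had an edgeR adjusted p of 0.999. Of the 13 genes listed for interferon signalling all were tested and none passed (6 positive, 7 negative, median -0.08). At an unadjusted p under 0.05 there was 1 of the 13, against 5.97% of all tested genes in either direction. Ifngr2, a chain of the interferon gamma receptor, was at 291 ± 95.1 CPM in aged and 200.3 ± 24.8 CPM in young libraries.

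Pf4, or platelet factor 4, is best known from platelets, binds heparin and heparan sulfate, and in the mouse is also made by macrophages at the borders of the brain. It was among the most abundant transcripts of every library, ranking between 7 and 21 of all genes by the authors' length-scaled values (FPKM). In aged libraries 1 to 5 it had 4696, 4793, 3470, 5366 and 2350 CPM. In young libraries 1 to 7 it had 8298, 6573, 4528, 2927, 4444, 5391 and 5463 CPM. The 4 highest libraries were young, but young library 4 was the second lowest of the 12. The means were 4135 ± 1214 CPM in aged and 5375 ± 1711 CPM in young libraries, with a log2 fold change of -0.38 ± 0.25 (SE; 95% interval -0.91 to 0.16; edgeR adjusted p = 0.999).

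Scaled by library total and transcript length, Pf4 was at 7259 ± 1867 FPKM in aged and 10450.4 ± 2208 FPKM in young libraries. On log2(FPKM + 1) the difference was -0.54 (limma adjusted p = 0.315), where the median of all genes was -0.17. Without aged libraries 1, 3 and 4 the edgeR value was -0.58. Platelet and megakaryocyte markers were far lower than Pf4: the 9 in the table summed to 0.523 to 7.51 CPM in aged and 0.259 to 25.2 CPM in young libraries, and Itga2b, the platelet integrin chain, had 3 counts over all aged and 0 over all young libraries. Clec1b, a receptor of platelets, was over 3 counts in 1 aged library, at 4.12 CPM, and in 5 young ones, at up to 22.9 CPM. Gp9, a chain of the platelet von Willebrand factor receptor, had 2 counts over all aged and 570 over all young libraries. Only 2 young libraries held more than 3 counts of it. Gp1ba and Gp1bb of the same list went the other way. They had 195 and 167 counts over all aged and 2 and 96 over all young libraries. Ppbp, the platelet basic protein gene 2371 bases from Pf4, was at 44.9 CPM in aged library 4, between 5.63 and 38.1 CPM in young libraries 2, 3, 6 and 7, and at 1 count or fewer in the other 7.

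Cxcl1 and Cxcl2 attract neutrophils through Cxcr2 and are induced through NF-kB. Cxcl2 was the steadiest of the ligands in young libraries, at 331 to 503 CPM, with a coefficient of variation of 12.7%. Aged libraries 1, 2, 3 and 5 lay at 253 to 389 CPM, and aged library 4 at 824 CPM. The means were 433 ± 224 CPM in aged and 413 ± 52.5 CPM in young libraries. The log2 fold change was 0.07 ± 0.26 (SE; 95% interval -0.47 to 0.61; edgeR adjusted p = 0.999), and its sign turned to -0.32 without aged library 4 and to -0.46 without aged libraries 1, 3 and 4, as it did on library totals alone.

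Cxcl1 varied far more than its neighbour. It had 108, 16.8, 39.5, 16.0 and 49.6 CPM in aged libraries 1 to 5, and 42.1, 91.6, 9.58, 28.9, 8.58, 0 and 0 CPM in young libraries 1 to 7. All 5 aged libraries held it, whereas young libraries 6 and 7 had no count. The means were 45.9 ± 37.4 CPM in aged and 25.8 ± 32.9 CPM in young libraries, with a log2 fold change of 0.83 ± 1.29 (SE; 95% interval -1.89 to 3.55; edgeR adjusted p = 0.999). That value was 0.22 without aged library 1, 1.61 without young library 2 and 0.35 without aged libraries 1, 3 and 4. Where Cxcl1 was present, the ratio of Cxcl2 to Cxcl1 on the FPKM scale ran from 2.86 to 45.1 in aged and from 3.89 to 45.8 in young libraries.

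Cxcl16 is made as a membrane protein, is shed by Adam10 and Adam17, binds Cxcr6 and also takes up oxidised lipoprotein. Every library held it, at 75.9, 136.7, 169.7, 103.0 and 198 CPM in aged libraries 1 to 5. Young libraries 1 to 7 held 273, 137, 116, 162, 198, 190.2 and 177 CPM. The groups overlapped over most of their range, although the 2 lowest libraries were aged and the highest was young. The means were 137 ± 49.4 CPM in aged and 179.0 ± 50.5 CPM in young libraries (log2 fold change -0.39 ± 0.30 SE, 95% interval -1.01 to 0.24, edgeR adjusted p = 0.999). Without aged libraries 1, 3 and 4 that value was -0.10. Adam10, its sheddase, was at 641 ± 285 CPM in aged and 364 ± 130.2 CPM in young libraries (edgeR adjusted p = 0.593).

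**Figure D2:**
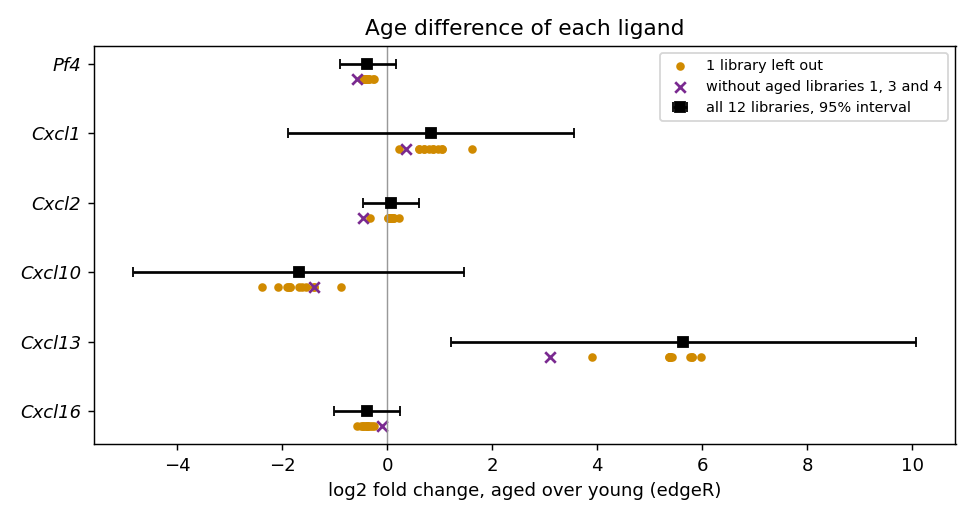
Log2 fold change of each ligand, aged over young, by edgeR (horizontal axis); squares with bars are the estimate and its 95% interval from all 12 libraries, dots leave out 1 library and crosses leave out aged libraries 1, 3 and 4. Cxcl13 has no dot without young library 6, where it was not tested. Only the interval of Cxcl13 lies off 0, from 1.21 to 10.08, and the values of Cxcl2 fall on both sides of 0.

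Levels between genes were compared per length, as FPKM over the 12 libraries. Pf4 led at 9120.5 ± 2574.5, followed by Cxcl2 at 409 ± 116 and Cxcl16 at 87.1 ± 29.3 (SD, n = 12). These 3 were ordered the same way in every library. Cxcl1 at 37.2 ± 36.4, Cxcl13 at 34.8 ± 83.1 and Cxcl10 at 32.5 ± 51.8 FPKM followed, and did not differ beyond their spread. Their order by mean was not the same in both groups. Aged library 3 (293 FPKM) weighed heavily on the aged mean of Cxcl13, and young library 4 (185 FPKM) on the young mean of Cxcl10. In aged libraries Cxcl13 averaged 80.9 ± 119.9, Cxcl1 48.9 ± 39.6 and Cxcl10 11.8 ± 13.2 FPKM, beside 68.3 ± 29.7 FPKM of Cxcl16 (SD, n = 5). In young libraries Cxcl10 averaged 47.4 ± 64.8, Cxcl1 28.8 ± 34.5 and Cxcl13 1.89 ± 5.01 FPKM, beside 100.5 ± 21.9 FPKM of Cxcl16 (SD, n = 7). Pf4 made up 87.8% to 96.2% of the summed CXC ligand FPKM in aged and 89.4% to 96.4% in young libraries. Of the rest, Cxcl2 was the first in all 12 libraries, with 42.3% to 84.6% in aged and 56.9% to 85.0% in young ones. The second place changed hands: it was held by Cxcl13 in aged library 3, by Cxcl1 in aged library 1 and young library 2, by Cxcl10 in young library 4 and by Cxcl16 in the other 8.

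**Figure D3:**
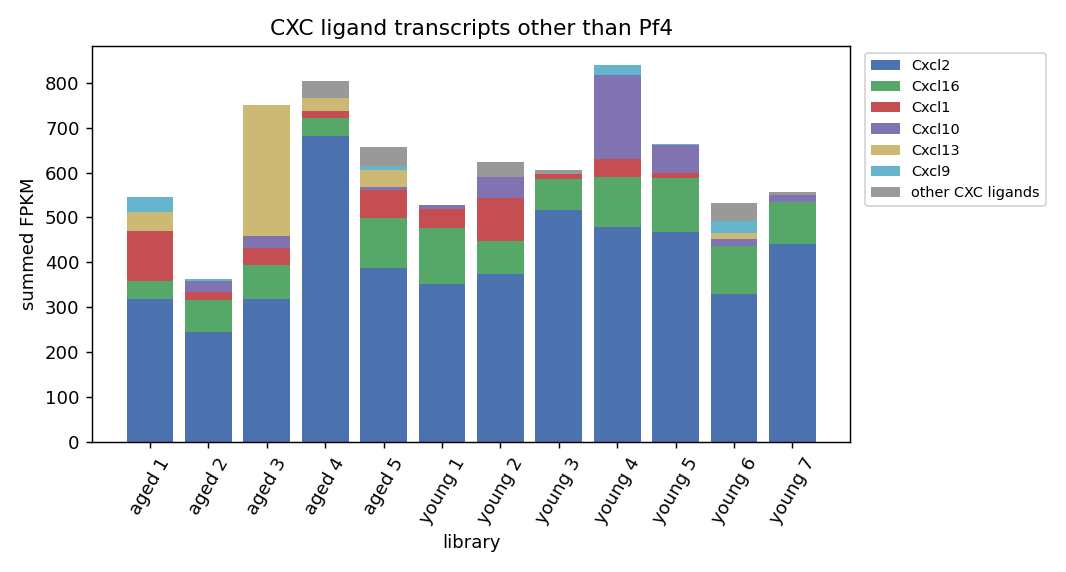
Summed FPKM of the CXC ligands other than Pf4 in each library (bars start at 0; colours are genes). Cxcl2 forms the largest block everywhere; the Cxcl13 block of aged library 3 (293 FPKM) and the Cxcl10 block of young library 4 (185 FPKM) are the largest of the others.

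Genes that vanish from some libraries were common at the level of Cxcl1, Cxcl10 and Cxcl13. Of 5184 tested genes with a mean of 10 to 100 CPM, 41.1% had a library with 1 count or fewer, 21.5% had at least 2 such libraries, as Cxcl1 had, and 9.66% had at least 3, as Cxcl10 had. Cxcl13 had 7 such libraries, as had 4 of the 5184 genes, and 7 is the most that the filter on low counts lets a tested gene have. Among 1390 genes at 100 to 1000 CPM only 2 had any such library.

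The other CXC ligands had few counts or none in many libraries, although Cxcl9 averaged 25.6 CPM in aged and 18.7 CPM in young libraries. Of 9 listed, 7 were in the table, 2 were tested (Cxcl9 and Ppbp) and none passed; Cxcl11 and Cxcl15 were not analysed here. Cxcl12, the ligand of Cxcr4, was at 66.0 CPM in aged library 5 and 5.07 CPM in young library 7 and at most 2 counts elsewhere. Cxcl3, a close relative of Cxcl2, had 1 to 5 counts in aged and 5 to 15 in young libraries, at most 0.117% of the Cxcl2 count; reads of near-identical genes can be shared out by the authors' counting, so these few counts are uncertain.

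Of 9 receptors listed, Cxcr2, Cxcr3 and Cxcr4 were tested and none passed, at an unadjusted p under 0.05 either. Cxcr2 was at 68.3 ± 41.2 CPM in aged and 43.7 ± 13.4 CPM in young libraries, Cxcr3 at 59.6 ± 30.8 against 45.6 ± 18.1 CPM, and Cxcr4 at 11.3 ± 3.28 against 11.9 ± 9.07 CPM (edgeR adjusted p = 0.999 for all 3). Neutrophils carry Cxcr2, and the 10 neutrophil markers listed summed to 8.45 to 136 CPM in aged and 10.3 to 96.0 CPM in young libraries. Csf3r, over 3 counts in all 12 libraries, weighed heavily on these sums. In young library 1, with the highest young sum and 1 marker over 3 counts, Csf3r alone was at 95.9 CPM. Ly6g, Mpo, Elane and Mmp8 had 3, 123, 50 and 21 counts over all aged and 0 over all young libraries. Every other marker of the list had counts in both groups. S100a8, Ngp and Retnlg had 985, 556 and 26 over all aged and 681, 290 and 3 over all young libraries. S100a9, Camp and Csf3r had 434, 230 and 4169 over all aged and 679, 232 and 7094 over all young ones. In aged libraries 3 and 4, which held the most Cxcl13 and the most Cxcl2, 9 of the 10 were over 3 counts, against 1 to 3 in the other aged and 1 to 5 in the young libraries. Their part in the ligand levels was not tested. Cxcr6 had at most 16 counts. The scavenging receptor Ackr3 was at 13.8 CPM in young library 5 and at most 1 count elsewhere, and Ackr1 at 7.42 CPM in aged library 2 and at most 4 counts elsewhere.

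**Figure D4:**
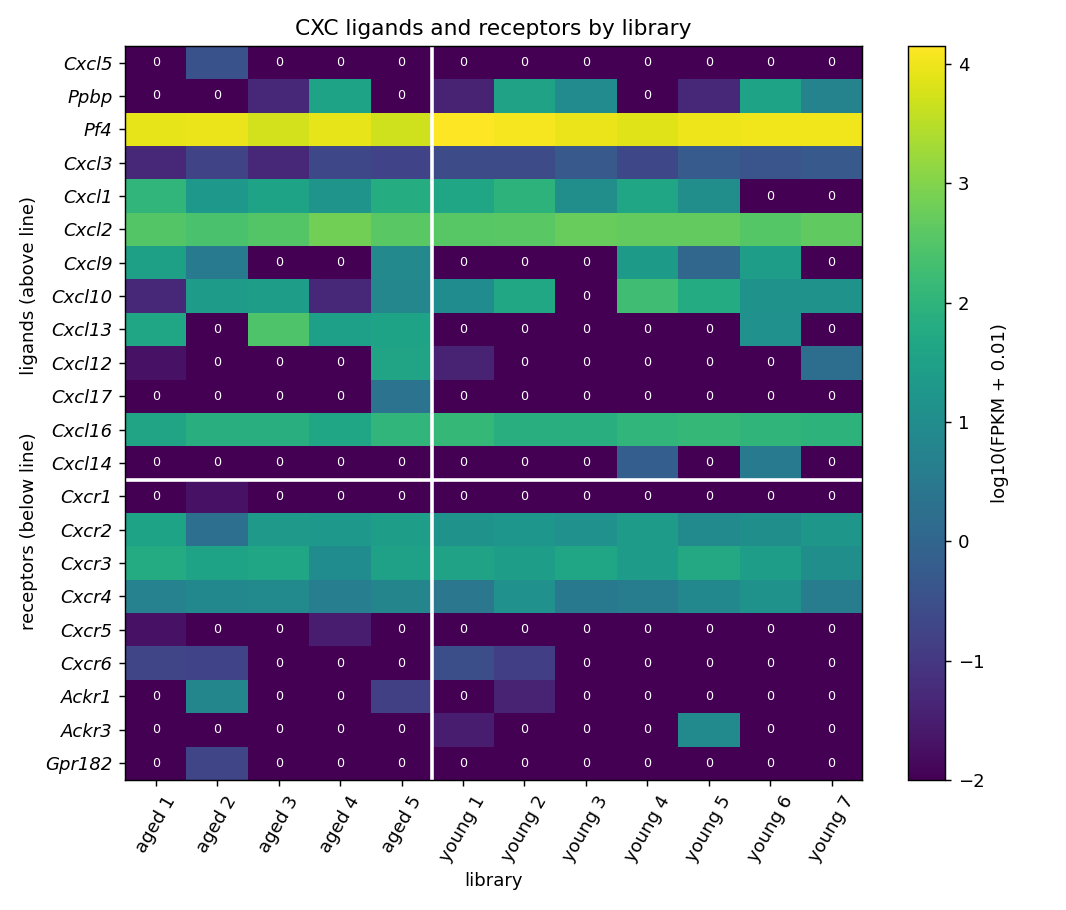
FPKM of the CXC ligands (above the line) and receptors (below) in each library, on a log10(FPKM + 0.01) colour scale, with 0 written where the deposited value is 0; aged libraries are left of the white line. Pf4, Cxcl2 and Cxcl16 are filled across all 12 libraries, whereas Cxcl13 is filled in 4 aged and 1 young libraries and Ackr1 and Cxcl12 in few.

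Genes that act on these ligands gave no call. For the unadjusted counts of each list, 5.97% of all tested genes had an unadjusted p under 0.05 in either direction. Of 16 listed NF-kB and transcript stability genes 15 were tested (3 at an unadjusted p under 0.05, 7 positive, 8 negative, median log2 fold change -0.37). Nfkbiz, a nuclear cofactor of NF-kB and the gene with the smallest unadjusted p of the list, was at 1049 ± 486 CPM in aged and 469 ± 202 CPM in young libraries (edgeR adjusted p = 0.38). Nfkbia, the inhibitor of NF-kB, was at 518 ± 129 CPM in aged and 819.9 ± 281 CPM in young libraries (edgeR adjusted p = 0.565), and Tlr2 at 39.6 ± 34.6 against 105 ± 43.9 CPM (edgeR adjusted p = 0.589). Zfp36, whose protein destabilises AU-rich messages, was at 2948 ± 1070.2 CPM in aged and 4368 ± 1939 CPM in young libraries (edgeR adjusted p = 0.876). Of 13 genes for shedding, cleavage and heparan sulfate 11 were tested (2 at an unadjusted p under 0.05, 4 positive, 7 negative, median -0.36), with the syndecan Sdc4 at 416 ± 126 CPM in aged and 619 ± 141 CPM in young libraries (edgeR adjusted p = 0.69). The 16 immediate-early and dissociation genes summed to 18606 to 26562 CPM in aged and 13567 to 22259 CPM in young libraries. All 16 were tested and none passed, with 6 at an unadjusted p under 0.05, 11 positive, 5 negative and a median log2 fold change of 0.38. The 4 with the smallest unadjusted p did not share a direction. Junb was lower in aged libraries (log2 fold change -1.14), and Klf2, Klf4 and Klf6 were higher (0.74, 0.79 and 0.76). The part of the 16 genes in the ligand levels was not tested. Among 9 CC chemokines, which were all tested and none of which passed, 7 were positive (median 0.30) and 3 had an unadjusted p under 0.05.

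AUUUA, the pentamer of AU-rich elements that shorten the life of messages, was counted as ATTTA in the longest annotated 3' untranslated region of each gene (GENCODE vM21). Cxcl1 held 7 in 592 bases and Cxcl2 11 in 1494 bases, or 11.8 and 7.36 per kilobase, and Pf4 held 1 in 123 bases, or 8.13 per kilobase. The median of 9035 tested genes was 1.47 per kilobase, and 0.387% of them reached the density of Cxcl1, 1.24% that of Pf4 and 1.99% that of Cxcl2. Cxcl10, Cxcl13 and Cxcl16 held 3.01, 2.5 and 1.41 per kilobase, which 21.5%, 28.9% and 51.4% of genes reached. The region counted for Cxcl2 is longer than the length implied by its counts and FPKM (1012 to 1015 bases, described below). That of Cxcl10, 996 bases, would leave little of its implied 1031 to 1033 bases for coding sequence. Implied lengths can fall short of the transcript. The densities of both genes describe annotated regions and may not hold for the transcripts counted in these libraries.

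The levels of the 6 ligands were next compared pairwise over the 12 libraries on log2(CPM + 1), for 15 pairs with Pearson's r and Spearman's rho. No pair passed after Benjamini-Hochberg adjustment over the 30 values (smallest adjusted permutation p = 0.891). Cxcl10 and Cxcl16 had the largest Pearson's r, 0.59 (permutation p = 0.0422, adjusted permutation p = 0.891), with a rho of 0.31 (adjusted permutation p = 0.891), and r was 0.26 without aged library 1 and young library 3, so that the relation rested on those libraries. Within the 7 young libraries it was 0.28. The neighbours Cxcl1 and Cxcl2 had r = -0.06 and rho = -0.29 (permutation p = 0.837 and 0.363, adjusted 0.93 and 0.891), r = 0.17 within young libraries and r = -0.29 without young libraries 6 and 7.

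Up to 3 genes most like each ligand were taken by Pearson's r over the 12 libraries among 6693 tested genes with a mean of at least 10 CPM; the libraries share age groups and scaling, and the highest of so many values are large in any case. For Pf4 they were Clic1 (0.94), Cox6a1 (0.92) and Timm23 (0.92), and for Cxcl13 Canx (0.95), Rassf2 (0.94) and Birc6 (0.93). Within the 7 young libraries the values for Cxcl13 were 0.75, 0.79 and 0.49, where 6 libraries were at 0. Clec2i (0.91), Rybp (0.90) and Ash2l (0.85) were most like Cxcl1, and Rtn3 (0.86), Rpl37 (0.81) and Cstf2t (0.80) most like Cxcl2, although Cstf2t had an r of -0.08 within the 7 young libraries. Lima1 (0.87), Rsrc1 (0.87) and Il17ra (0.86) led for Cxcl10, and Cd151 (0.89) and Snrpd3 (0.88) for Cxcl16. No ligand was among those most like another.

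The counts and FPKM values together imply the length by which each gene was scaled in each library. It can fall short of the transcript. Cxcl13 has 1 annotated transcript of 1150 bases, but an implied 1092 to 1094 bases once the shift described next is removed. After removing the shift common to the genes of a library, the implied length of Pf4, Cxcl1, Cxcl2, Cxcl10 and Cxcl13 varied by 0.183% to 1.16% of its median between libraries. That of Cxcl16 ran from 1737 to 2122 bases in aged and from 1716 to 1947 bases in young libraries, a spread of 21.6%, wider than in 87.8% of 2745 genes with at least 200 counts in every library (median 1.54%). GENCODE lists 3 Cxcl16 transcripts, of 1267 to 2699 bases, of which 1 is protein-coding. The longest value was that of aged library 4 and the shortest that of young library 3. A length that differs between libraries moves FPKM but not counts: with a length offset the log2 fold change of Cxcl16 was -0.47, against -0.39 without.

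**Figure D5:**
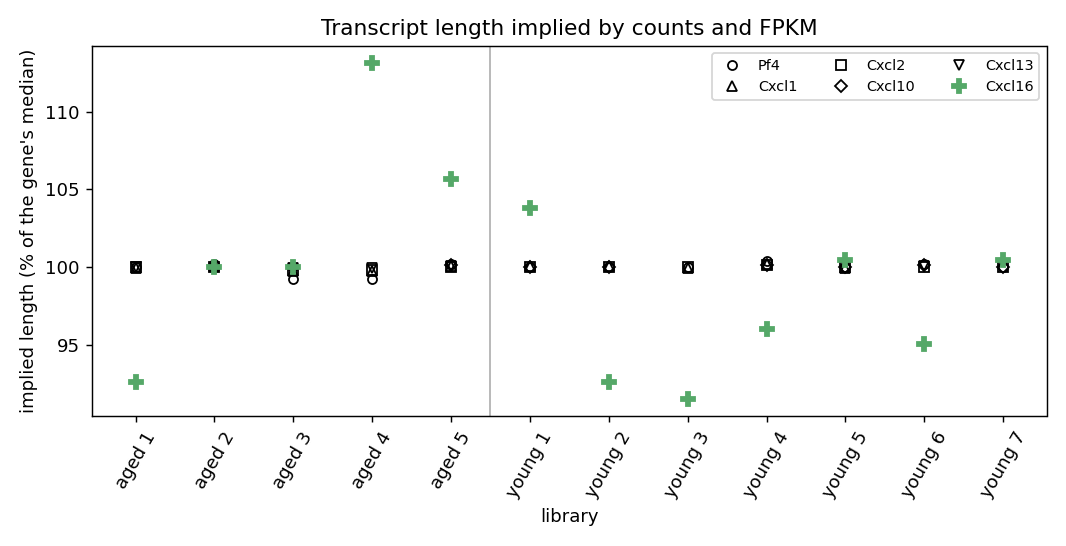
Length implied by the deposited counts and FPKM in each library (vertical axis, percent of the gene's median over libraries), for libraries with at least 20 counts of the gene. Aged libraries are left of the line. Cxcl16 (green plus signs) spreads over 21.6% and the other 5 ligands over at most 1.16%.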

How the data were processed

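Gene-level values were analysed in 12 SMART-seq2 libraries (5 aged, 7 young), grouped by their titles. The members and gene lists were chosen with earlier results of these data known. The authors deposited estimated counts per gene; the submitters' processing notes name RSEM 1.2.12, HISAT2 2.0.4, DESeq2 1.4.5 and Bowtie2 2.2.5 with GRCm38 (mm10), without roles, and name no annotation. From 88.2% to 90.6% of the estimated counts per library were whole, and all were rounded. The authors also deposited length-scaled values without a named unit, read as FPKM because counts divided by them and by library totals give plausible lengths (median 2613 bases). The authors' group means were not used. Amplified copies count as separate reads, so floors of 3 counts (0.0979 to 0.129 CPM on raw library totals, without TMM factors) cover counting error only.

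Aged and young libraries were compared with edgeR 4.0.16 in R 4.3.3 (TMM factors, filterByExpr, robust quasi-likelihood test with legacy estimation, Benjamini-Hochberg adjustment over 9550 genes, threshold 0.05). Levels are TMM-normalised CPM. Each SE is the fold change over the root of its F statistic, with 95% intervals from its degrees of freedom. DESeq2 1.42.0 and limma 3.58.1 were alternatives. Pairs of ligands were compared with 100000 permutations. The scripts were tested on simulated data. From each other list, called genes or else up to 4 genes with the smallest unadjusted p could be named, together with any CXC ligand or receptor. Some marker genes outside these rules, such as Mrc1, Folr1, Itga2b, Gp9 and Ly6g, were also named. Some genes that these rules would name are not reported here. Sums over marker lists use all genes of a list in the table.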

Additional observations from a re-analysis of the deposited data

Results flagged for a closer look

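Each age group of the 11 CXC ligands and receptors that were tested was searched for a library far from its group, with Dixon's ratio of the gap to the nearest library over the whole range. Of 22 groups 6 passed the 95% critical value (0.71 for 5 libraries, 0.568 for 7). Chance gives about 1 in 20 for normally distributed values, a rate that does not hold for groups of mostly 0 counts, where a lone library with counts always passes, as for Cxcl13 in young and Ppbp in aged libraries. Aged library 3 held 386 CPM of Cxcl13, and the next aged library 52.3 CPM. Young library 6 held 14.4 CPM of Cxcl13, and the other young libraries 0. Aged library 4 stood out for Cxcl2, at 824 CPM with 389 CPM in the next, and for Ppbp, at 44.9 CPM with at most 1 count in the other aged libraries. Young library 4 held 154 CPM of Cxcl10, and the next young library 55.4 CPM. Aged library 1 held 97.3 CPM of Cxcl9, and the next aged library 19.7 CPM.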

How the results depend on the processing

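Over the alternatives, the log2 fold changes of Pf4 (-0.58 to -0.25), Cxcl1 (0.22 to 3.56), Cxcl10 (-3.52 to -0.89) and Cxcl16 (-0.63 to -0.10) kept their direction in 24 of 24 and that of Cxcl13 (3.10 to 7.76) in 21 of 21 that tested it. The alternatives reuse the same libraries and are not independent. Cxcl13 was over 3 counts in 4 aged libraries and 1 young library, so its direction had little room to turn. No ligand was called except Cxcl13 with edgeR legacy=FALSE (5.57, adjusted p = 0.00211, 1 ligand called). Cxcl2 turned to -0.09 on library totals and with voom, to -0.19 on log2(FPKM + 1) and on log2(FPKM + 0.1), to -0.10 under the replicate block and to -0.46 without aged libraries 1, 3 and 4; over single libraries left out it ranged from -0.32 to 0.22. The cause was not tested. The edgeR fit called 1 gene of all tested. Other settings called 3 (library totals), 13 (no filter), 38 (legacy=FALSE), 121 (DESeq2), 2 (voom), 6 on log2(FPKM + 1) and 0 on log2(FPKM + 0.1), 0 with the replicate block, 0 for replicates 1 to 5 without it (added after seeing the data) and 0 without aged libraries 1, 3 and 4; with 1 library left out the count ran from 0 to 75, the 75 without aged library 2. Same-numbered libraries did not deviate together (correlations -0.0405 to 0.0938, none best with its own number), so the block rests on a shared number only. The median of all genes was -0.13 on library totals, -0.17 on log2(FPKM + 1) and -0.25 on log2(FPKM + 0.1). Cxcl13 gave no value with the replicate block, for replicates 1 to 5 or without young library 6. Levels at 1 count or fewer, in 3 libraries for Cxcl10 and 7 for Cxcl13, go with the wide intervals of these genes.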
